A study of Mus musculus with 8 samples.

Results

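The genes described here are 40 mouse genes of the NRF2 pathway and of antioxidant defence, chosen by symbol for their role: peroxiredoxins, thioredoxins and their reductases, glutathione enzymes, heme breakdown enzymes, catalase and superoxide dismutases, suppliers of NADPH, and the regulators Nfe2l2, Keap1 and Bach1. The choice was made with earlier results of these data known. Each of the 40 matched 1 gene ID among the 55401 genes of the deposited count table, and all 40 were among the 17470 genes that passed the filter on low counts. The cells were bone marrow-derived macrophages (BMDM), that is, bone marrow cells grown into macrophages in culture, and their RNA was sequenced. Knockout (KO) cells came from Lyz2-Cre-Mettl3fl/fl mice and wild-type (WT) cells from Mettl3fl/fl mice, so the floxed Mettl3 alleles were present in all groups and Cre in KO cells alone. METTL3 is the enzyme that writes the m6A mark on RNA, and Lyz2-Cre cuts floxed alleles in myeloid cells. Stimulated cells received 50 ng/ml of lipopolysaccharide (LPS, a bacterial cell wall component) overnight and afterwards 10 µM of nigericin, which lets potassium out of cells and is used to trigger the NLRP3 inflammasome, for 3 h per the sample labels. The control cells received PBS. The groups were stimulated KO, KO with PBS, stimulated WT and WT with PBS, with 2 libraries each and 8 in all. Age and sex of the mice are not in the labels, and nothing there says whether a group's libraries are from separate mice, so the p-values measure the spread between libraries, which may be technical. An effect of Cre and an effect of losing Mettl3 cannot be told apart in this design.

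NRF2, the protein of Nfe2l2, is a transcription factor that KEAP1 holds and passes to degradation in resting cells. Oxidants and electrophiles modify KEAP1, NRF2 then accumulates, pairs with small MAF proteins and binds antioxidant response elements near genes for glutathione synthesis, thioredoxin and peroxiredoxin function, heme breakdown and NADPH supply. BACH1 competes for these elements as a repressor, and p62, the protein of Sqstm1, binds KEAP1 and is itself encoded by an NRF2 target. In macrophages the pathway is known for limiting oxidative damage and for restraining the expression of inflammatory cytokines.

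The core of the antioxidant response element reads TGACNNNGC. It was searched on both strands of RefSeq promoter windows (GRCm38.p6, 250 bases before to 50 after the start), together with the looser form TGANNNNGC, of which every TGACNNNGC is a subset. Windows were found for 36 of the 40 genes, and Gclc, Gsr, Hmox1 and Prdx6 were not searched. The following stretches are from genes that were lower in stimulated KO than in stimulated WT cells, as described further on. Windows were shown only if they held TGACNNNGC before the start or, for Srxn1, TGAGTCAGC, so every stretch holds a match by selection. Each is written in the direction of its gene, with the match in capitals. Srxn1 and Me1 carry the match on the gene's strand, and the other 4 carry it on the opposite strand, so their capitals read as the reverse complement. The Srxn1 capitals match the looser form.
Prdx1 (chr4:116685438-116685502, plus strand): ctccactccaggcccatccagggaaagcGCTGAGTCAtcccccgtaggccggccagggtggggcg
Srxn1 (chr2:152105451-152105515, plus strand): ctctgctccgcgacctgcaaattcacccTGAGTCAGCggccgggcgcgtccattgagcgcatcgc
Txnrd1 (chr10:82859086-82859150, plus strand): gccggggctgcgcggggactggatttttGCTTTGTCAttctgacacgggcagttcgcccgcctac
Gclm (chr3:122245395-122245459, plus strand): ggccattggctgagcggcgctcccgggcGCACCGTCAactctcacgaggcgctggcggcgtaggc
G6pdx (chrX:74428901-74428965, minus strand): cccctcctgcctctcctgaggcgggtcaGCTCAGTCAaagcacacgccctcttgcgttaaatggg
Me1 (chr9:86695891-86695948, minus strand): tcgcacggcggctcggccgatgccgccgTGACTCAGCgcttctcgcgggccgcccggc
The matches lay 133 bases before the RefSeq start for Prdx1, 45 for Srxn1, 92 for Txnrd1, 134 for Gclm, 57 for G6pdx and 6 for Me1. TGACNNNGC was present in 22.9% of the 48 windows of these genes (11 windows), against 12.4% of all 32851 windows. The looser form was present in 43.8% of the windows of these genes, against 41.3% of all windows. Among the genes lower in stimulated KO cells, 7 of the 13 with a window held TGACNNNGC (53.8%), against 4 of the 23 others (17.4%) and 14.0% of all genes with a window. A match in these windows is a description of letters and not a measured binding site.

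Total counts lay between 55032057 and 65487739 per library. Mettl3, counted over the whole gene and therefore also over exons that Cre does not remove, stood at 9.08 and 7.87 CPM (counts relative to the TMM-scaled library total) in stimulated KO cells, against 28.2 and 23.4 CPM in stimulated WT cells. With PBS it stood at 5.64 and 6.33 CPM in KO cells and 13.6 and 13.3 CPM in WT cells. All 12 macrophage markers were detected in every group. Their summed level was 31160 to 32350 CPM in stimulated KO cells and 48870 to 51980 CPM in stimulated WT cells, and without Lyz2, the gene that carries Cre, it was 16420 to 16950 CPM in stimulated KO cells and 16640 to 17550 CPM in stimulated WT cells. The 10 fibroblast and stromal markers, none at 0, summed to 470 to 533 CPM in stimulated KO and 189 to 202 CPM in stimulated WT cells, with 9 of the 10 called higher in stimulated KO cells. With PBS they summed to 487 to 516 CPM in KO and 314 to 331 CPM in WT cells. The 10 B and plasma cell markers summed to 40.2 to 48.7 CPM in stimulated KO cells and to 11.2 to 14.9 CPM in stimulated WT cells, where Cd79a, Ms4a1, Mzb1 and Pax5 were at 0. The 10 neutrophil markers summed to 30.4 to 33.8 CPM in stimulated KO and 28.1 to 35.6 CPM in stimulated WT cells, with Ly6g and Retnlg at 0 in both groups, and the erythroid markers to under 1 CPM in these libraries, with Car1 and Slc4a1 at 0. The 9 T and NK cell markers lay between 6.33 and 8.06 CPM, the 9 mast cell and basophil markers between 2.25 and 4.61 CPM and the 7 dendritic cell markers between 1.24 and 3.79 CPM in the stimulated libraries. Of nuclear transcripts read as a sign of RNA quality, the sum was 457 and 474 CPM in stimulated KO and 812 and 397 CPM in stimulated WT libraries. The part of other cells and of RNA quality in the results below was not tested. In bulk RNA, fewer cells of a type and less RNA per cell cannot be told apart.

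After LPS and nigericin, at least 1 gene of every role described here except the glutathione peroxidases was lower in KO than in WT macrophages. Of the 40 genes, 14 were lower in stimulated KO than in stimulated WT cells (35.0%) and none was higher (edgeR quasi-likelihood test, Benjamini-Hochberg adjusted p under 0.05). Among all genes tested 2.01% were lower and 2.91% were higher in this comparison. The 40 genes were chosen with earlier results of these data known, so the gap to these shares is a description and not a test. Their median log2 change, KO over WT, was -0.32, with a range of -1.56 to 0.21, against -0.00447 over all genes. For 27 of the 40, both stimulated KO libraries lay below both stimulated WT libraries (25.1% of all genes did), and for 3 they lay above (25% of all genes). At an unadjusted p under 0.05, 24 were lower and 1, Nfe2l2, was higher. Shares of all genes at an unadjusted p are not given, here or below, so such counts have no background beside them. Called lower were 1 of 6 peroxiredoxins, 1 of 5 glutathione synthesis genes, 2 of 5 thioredoxin genes, 2 of 4 heme genes, 1 of 4 quinone, catalase and superoxide genes, 2 of 5 conjugation genes, 4 of 5 NADPH genes and 1 of 4 regulators.

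**Figure D1:**
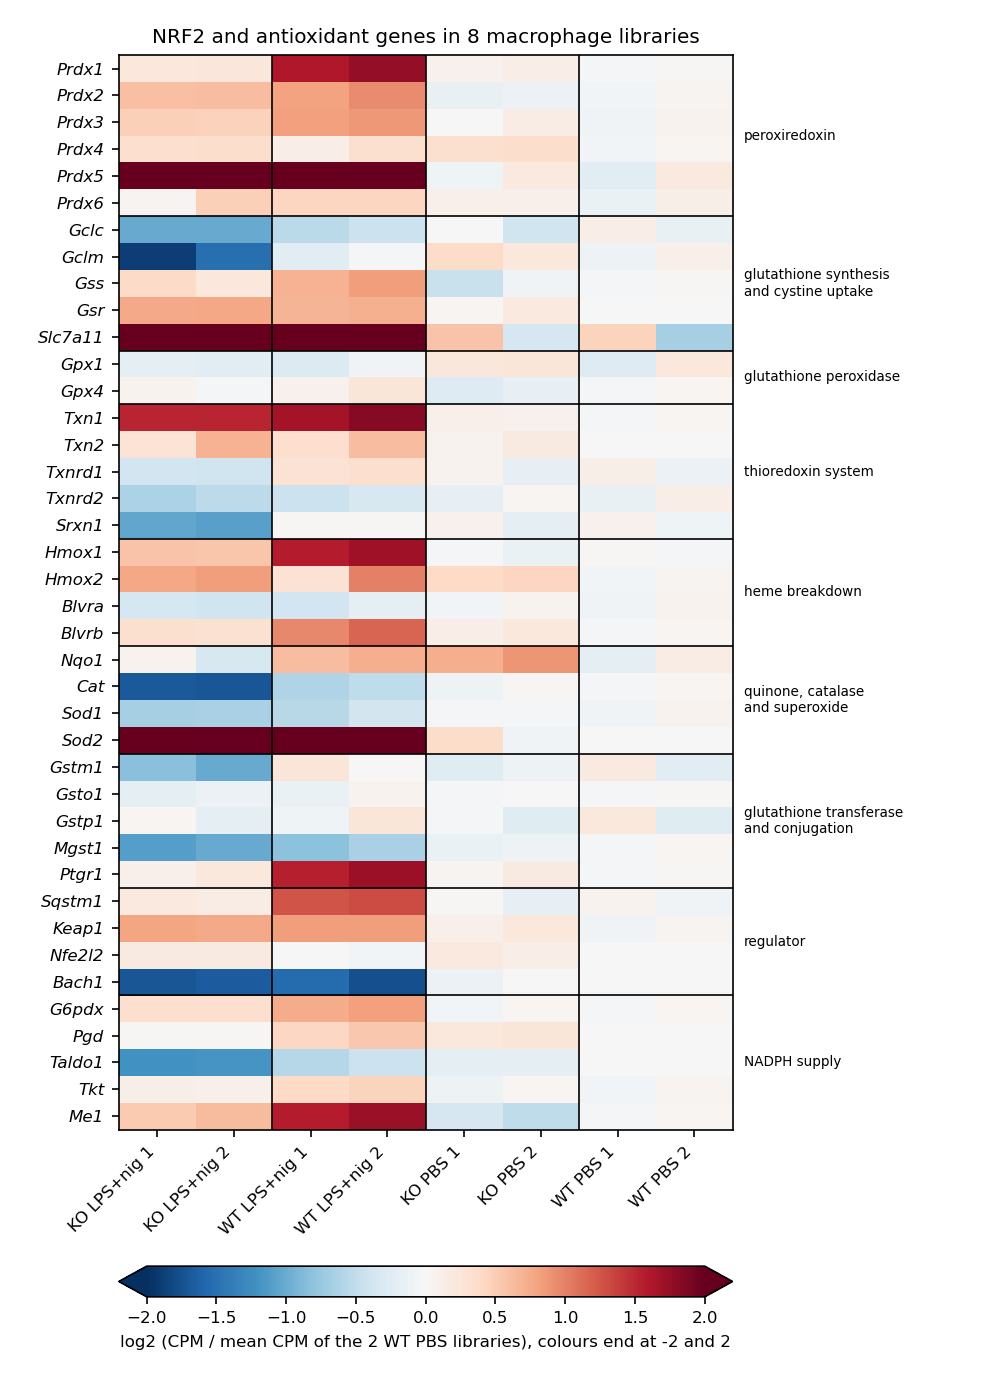
Each row is a gene, grouped by role, and each column a library, with colour giving the log2 ratio of its CPM to the mean of the 2 WT libraries with PBS. Prdx1, Hmox1, Ptgr1, Sqstm1 and Me1 are darker red in both stimulated WT libraries than in both stimulated KO libraries, and Gclm, Srxn1, Cat, Gstm1 and Taldo1 are darker blue in both stimulated KO libraries.

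With PBS none of the 40 genes was called in either direction between KO and WT cells by edgeR (1.2% of all genes were higher in KO cells and 0.355% lower), by DESeq2 or by limma-voom. At an unadjusted p under 0.05, 4 were higher and 3 lower. The median log2 change was 0.00196, against 0 over all genes. Both KO libraries lay above both WT libraries for 14 of the 40 (24.6% of all genes) and below for 6 (24% of all genes). The widest differences with PBS were a log2 change of 0.80 for Nqo1 and -0.42 for Me1, and neither passed the test (edgeR adjusted p = 0.147 and 0.166). Pgd passed with library sizes taken without composition factors, at a log2 change of 0.26 (adjusted p = 0.0498).

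Stimulation changed most of the 40 genes in both genotypes. In KO cells 12 rose (30%) and 15 fell (37.5%) relative to PBS, beside 20.2% and 19% of all genes. In WT cells 21 rose (52.5%) and 7 fell (17.5%), beside 20.6% and 20% of all genes. The number that fell in WT cells was near the share over all genes. The median log2 change was 0.09 in KO and 0.46 in WT cells, against -0.03 in KO and -0.01 in WT cells over all genes. Without stimulated KO library 2, 9 genes instead of 15 fell in KO cells, beside 13.4% of all genes. The fall of Gpx1 in KO cells did not pass with DESeq2 size factors or without a filter (adjusted p = 0.0511 and 0.0557), nor that of Pgd without a filter (0.0535). In WT cells the rise of Txn2 did not pass with library size alone or without a filter (0.157 and 0.053), nor that of Hmox2 with library size alone (0.0749) or the fall of Blvra without a filter (0.0651). Classes over both genotypes describe the 40 genes alone, since shares of all genes in such classes are not given. By call, 12 genes rose in both genotypes and 7 fell in both. A further 7 rose in WT cells without passing the test in KO cells (Prdx1, Txn2, Hmox2, Blvrb, Ptgr1, Sqstm1 and Tkt). Another 6 fell in KO cells without passing in WT cells (Gclm, Gpx1, Txnrd1, Txnrd2, Srxn1 and Gstm1), while Nqo1 and Pgd fell in KO and rose in WT cells, and 6 passed in neither. Other settings moved some of these classes, since the rise of Sqstm1 in KO cells passed with limma-voom (adjusted p = 0.0455) and just passed with DESeq2. In WT cells Txnrd1 had a rise that passed with DESeq2 and limma-voom (0.0337 and 0.0403), Prdx6 likewise (0.0256 and 0.0456), and Txnrd2 a fall that passed with library size alone and with a filter of 5 CPM in 2 libraries (0.0106 and 0.0336). A pass in 1 genotype alone is not a difference between the genotypes, which was tested separately and is given gene by gene below.

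**Figure D2:**
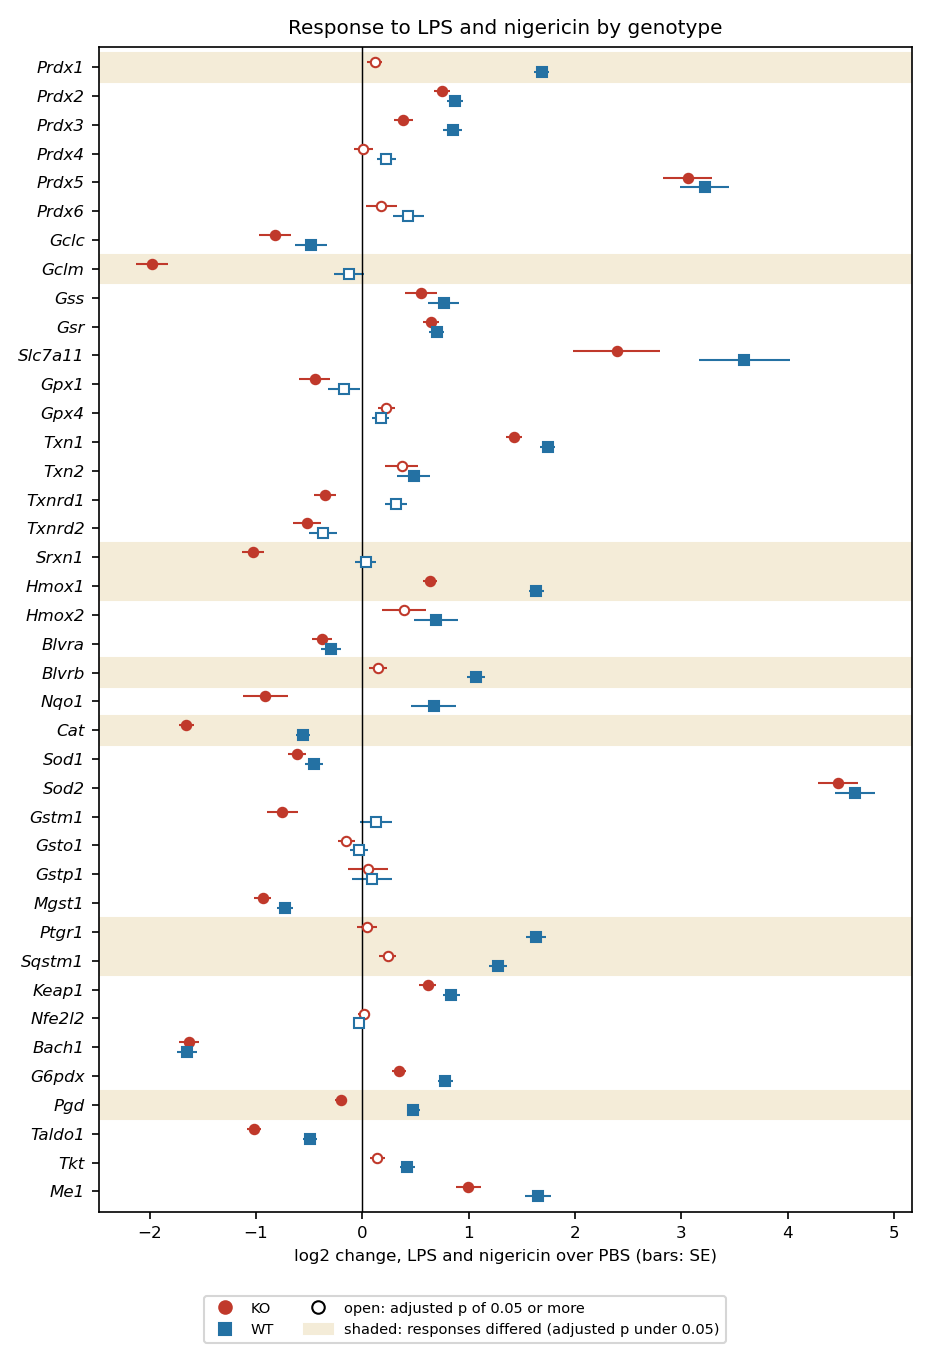
Points give the log2 change of each gene, LPS and nigericin over PBS, in KO (circles) and WT cells (squares) with standard errors, open where the adjusted p was 0.05 or more. Shaded rows mark the 9 genes whose responses differed, and in each of them the KO point lies left of the WT point.

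The peroxiredoxins, which reduce hydrogen peroxide and alkyl peroxides, were set apart by Prdx1, the abundant cytosolic member. Prdx1 stood at 1409 and 1427 CPM in stimulated KO cells, against 3690 and 4138 CPM in stimulated WT cells. With PBS the gene had 1288 and 1330 CPM in KO cells and 1198 and 1236 CPM in WT cells. Both stimulated WT libraries lay far above the other 6 libraries, which ran between 1198 and 1427 CPM. The log2 change on stimulation was 0.12 ± 0.07 in KO cells, which did not pass the test (edgeR adjusted p = 0.227), and 1.69 ± 0.07 in WT cells (adjusted p = 5.13e-06), where ± gives the standard error of the fit. The response was smaller in KO cells by 1.57 ± 0.10 on the log2 scale (difference of -1.57, adjusted p = 0.00293), and the level after stimulation was 36.2% of that in WT cells (log2 change -1.47 ± 0.07, adjusted p = 0.000781). The other peroxiredoxins were not called between the genotypes with either treatment by edgeR in the reported fit. Prdx3 was called lower in stimulated KO cells with DESeq2 (adjusted p = 0.01), limma-voom (0.0439) and the filter of 5 CPM (0.0462), against a log2 change of -0.38 in the reported fit (adjusted p = 0.0583). Prdx5 rose by 3.06 ± 0.23 in KO cells and 3.22 ± 0.23 in WT cells on the log2 scale, Prdx2 by 0.75 ± 0.07 in KO and 0.87 ± 0.07 in WT cells, and Prdx3, the mitochondrial member, by 0.39 ± 0.09 in KO and 0.85 ± 0.09 in WT cells. None of these 3 passed the test of the difference (edgeR adjusted p = 0.923, 0.743 and 0.221). Prdx4, of the endoplasmic reticulum, and Prdx6 passed in neither genotype, with log2 changes of 0.01 and 0.18 in KO cells and 0.22 and 0.43 in WT cells.

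Sulfiredoxin, the product of Srxn1, repairs peroxiredoxins whose active cysteine has been over-oxidised. Srxn1 stood at 95.9 and 92.7 CPM in stimulated KO cells, against 201.5 and 201.3 CPM in stimulated WT cells. Under PBS it reached 210.0 and 175.2 CPM in KO cells and 208.8 and 185.9 CPM in WT cells. The low values were those of the 2 stimulated KO libraries, and the other 3 groups overlapped. Srxn1 fell in KO cells by 1.03 ± 0.10 on the log2 scale (edgeR adjusted p = 0.000276), against a log2 change of 0.03 ± 0.10 in WT cells (adjusted p = 0.849). The difference of the responses was -1.06 ± 0.14 (adjusted p = 0.0417), which no longer passed with library sizes taken without composition factors (-0.95, adjusted p = 0.0736). Txnrd1, the cytosolic thioredoxin reductase, stood at 180.3 and 178.5 CPM in stimulated KO cells and 289.0 and 297.7 CPM in stimulated WT cells, and with PBS at 247.2 and 210.7 CPM in KO and 255.7 and 216.6 CPM in WT cells. Stimulated KO libraries were the lowest of the 8 and stimulated WT libraries the highest. The log2 change between them was -0.71 ± 0.11 (adjusted p = 0.0164), a call that was lost when any 1 of the 4 stimulated libraries was left out (adjusted p up to 0.108). Txn1, thioredoxin itself, rose by 1.43 ± 0.07 in KO and 1.74 ± 0.07 in WT cells, and its difference of -0.31 ± 0.10 did not pass (adjusted p = 0.307). Of the mitochondrial pair, neither was called between the genotypes. Txn2 had a log2 change of 0.37 in KO and 0.48 in WT cells, and Txnrd2 of -0.52 in KO and -0.37 in WT cells.

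**Figure D3:**
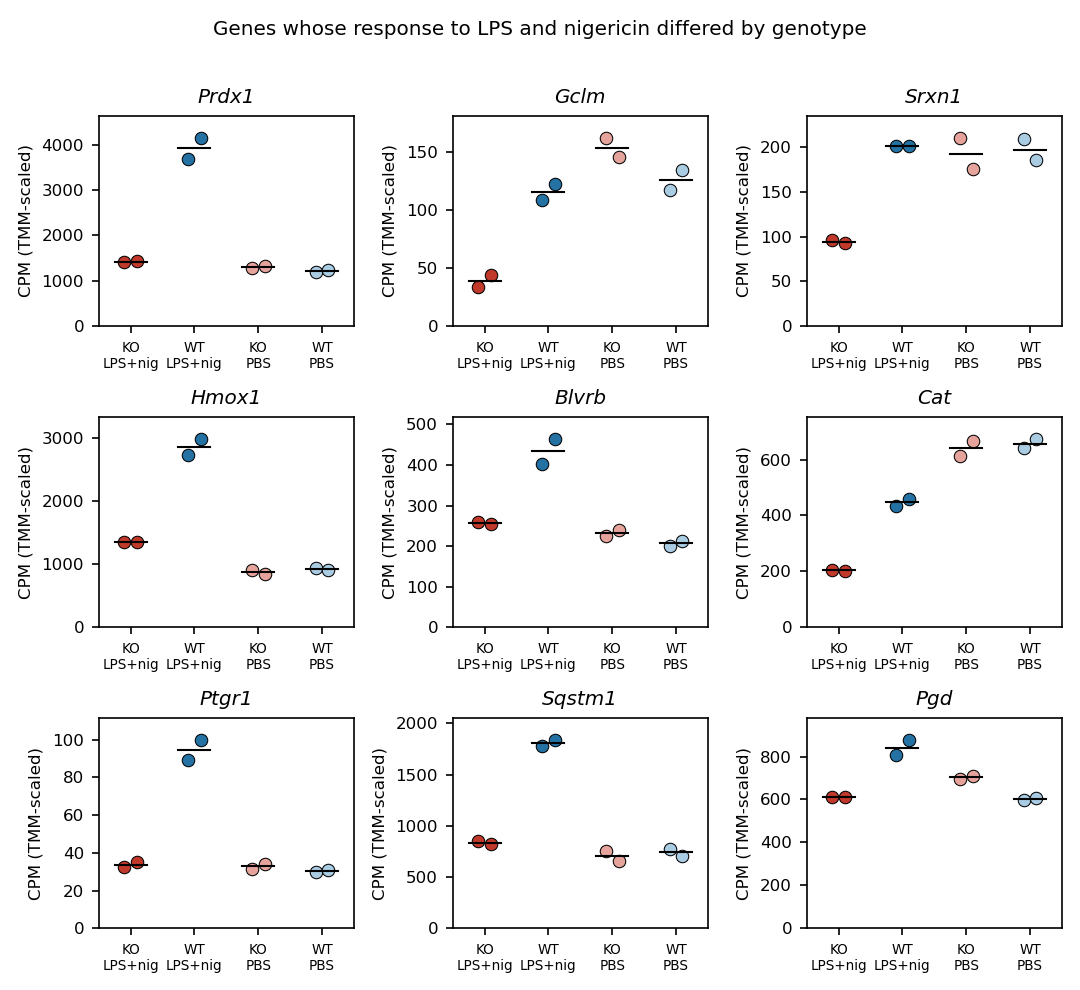
Each panel shows 1 of the 9 genes whose responses differed, with CPM from 0 on the vertical axis, a point for each library and a bar for the mean of the 2 libraries of a group. In all 9 panels both stimulated KO libraries lie below both stimulated WT libraries, and the groups with PBS lie closer together.

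Glutathione is made by glutamate-cysteine ligase, a pair of a catalytic subunit (Gclc) and a modifier subunit (Gclm), and then by glutathione synthetase (Gss). Gclm stood at 33.9 and 44.1 CPM in stimulated KO cells, against 108.5 and 122.0 CPM in stimulated WT cells. In cells given PBS it stood at 161.8 and 145.7 CPM in KO cells and 116.8 and 134.6 CPM in WT cells. The stimulated KO libraries were the lowest of the 8, while KO libraries with PBS were the highest. Gclm fell in KO cells by 1.98 ± 0.15 on the log2 scale (edgeR adjusted p = 7.16e-05), the steepest fall among the 40 genes, and had a log2 change of -0.13 ± 0.14 in WT cells (adjusted p = 0.531). The difference of -1.85 ± 0.20 passed (adjusted p = 0.0205), and the level after stimulation was 33.9% of that in WT cells (log2 change -1.56 ± 0.15, adjusted p = 0.00382). Gclc fell in both genotypes, by 0.82 ± 0.15 in KO and 0.48 ± 0.15 in WT cells, and its difference did not pass (-0.33 ± 0.21, adjusted p = 0.640). Gss, and Gsr, which regenerates reduced glutathione, rose in both, Gss by 0.55 in KO and 0.76 in WT cells and Gsr by 0.65 in KO and 0.70 in WT cells. Slc7a11, the cystine importer that feeds glutathione synthesis, stood at 61.6 and 66.1 CPM in stimulated KO cells and 142.3 and 116.0 CPM in stimulated WT cells without overlap, but its libraries with PBS spread from 8.52 to 15.8 CPM in KO and from 6.77 to 14.6 CPM in WT cells. Its rise was 2.39 ± 0.41 in KO and 3.59 ± 0.43 in WT cells, and neither the difference (-1.20 ± 0.56, adjusted p = 0.514) nor the level after stimulation (-1.02 ± 0.39, adjusted p = 0.212) passed with edgeR. The level after stimulation passed with DESeq2 (-1.01, adjusted p = 0.0439). The peroxidases Gpx1 and Gpx4, which use glutathione to reduce hydrogen peroxide and lipid peroxides, had log2 changes between stimulated KO and stimulated WT cells of -0.04 ± 0.15 and -0.16 ± 0.08, neither of which passed.

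Heme oxygenase, encoded by Hmox1, opens the heme ring to biliverdin, and biliverdin reductases (Blvra, Blvrb) make bilirubin. Hmox1 stood at 1358 and 1354 CPM in stimulated KO cells, against 2729 and 2982 CPM in stimulated WT cells. In PBS-treated cells it had 901 and 842 CPM in KO cells and 937 and 901 CPM in WT cells. Stimulated WT libraries were the highest, stimulated KO libraries came between them and the PBS libraries, and the PBS groups overlapped, with 901.4 CPM in the higher KO and 900.9 CPM in the lower WT library. Hmox1 thus rose in both genotypes, by 0.64 ± 0.07 in KO and 1.64 ± 0.07 in WT cells on the log2 scale (edgeR adjusted p = 0.000363 and 5.38e-06), with a difference of -0.998 ± 0.09 (adjusted p = 0.014). Blvrb stood at 258.2 and 255.6 CPM in stimulated KO cells and 403.3 and 463.1 CPM in stimulated WT cells, and with PBS at 225.6 and 238.9 CPM in KO and 200.4 and 212.9 CPM in WT cells. Its log2 change on stimulation was 0.15 ± 0.08 in KO cells (adjusted p = 0.211) and 1.07 ± 0.08 in WT cells (adjusted p = 8.62e-05), with a difference of -0.92 ± 0.12 (adjusted p = 0.0322). The lower level of Blvrb in stimulated KO cells (-0.75 ± 0.08, adjusted p = 0.00611) lost its call when either library of stimulated KO cells was left out (adjusted p up to 0.0585). Blvra, the other reductase, fell in both genotypes, by 0.38 ± 0.09 in KO and 0.29 ± 0.09 in WT cells. Hmox2, the constitutive heme oxygenase, had a log2 change of 0.12 ± 0.21 between stimulated KO and stimulated WT cells. For Hmox2, 40.2% of exon bases overlap the antisense gene Cdip1, and the sources used here do not state whether counting used strand, so reads of these genes cannot be told apart.

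Catalase (Cat), which splits hydrogen peroxide in peroxisomes, fell in both genotypes and fell further in KO cells. It stood at 205.5 and 201.0 CPM in stimulated KO cells, against 434.0 and 460.0 CPM in stimulated WT cells. Given PBS, the gene stood at 614.3 and 665.4 CPM in KO cells and 641.7 and 672.6 CPM in WT cells. The stimulated groups lay apart from each other and below all PBS libraries. The fall was 1.65 ± 0.07 in KO and 0.56 ± 0.07 in WT cells on the log2 scale (edgeR adjusted p = 5.41e-06 and 0.000721), and the responses differed by -1.10 ± 0.10 (adjusted p = 0.0105). The superoxide dismutases convert superoxide to hydrogen peroxide. Sod2, the mitochondrial enzyme, stood at 1656 and 1310 CPM in stimulated KO and 1400 and 1547 CPM in stimulated WT cells, overlapping, and rose by 4.48 ± 0.19 in KO and 4.63 ± 0.19 in WT cells, the steepest rises among the 40 genes. Sod1, the cytosolic enzyme, fell by 0.61 ± 0.08 in KO and 0.45 ± 0.08 in WT cells. Neither passed the test of the difference of responses (adjusted p = 0.885 for Sod2 and 0.695 for Sod1). Nqo1, the quinone reductase often used as an NRF2 marker, was low throughout, at 2.39 and 1.83 CPM in stimulated KO, 3.47 and 3.75 CPM in stimulated WT, 3.75 and 4.18 CPM in KO with PBS and 2.01 and 2.53 CPM in WT with PBS. It fell by 0.91 ± 0.22 in KO cells and rose by 0.67 ± 0.21 in WT cells, and the difference of -1.58 ± 0.30 did not pass with edgeR (adjusted p = 0.0959) but did with DESeq2 (adjusted p = 0.00871). The rise in WT cells did not pass with DESeq2 (adjusted p = 0.0538), without a filter (0.0654) or with library size alone (0.101).

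Of the genes grouped here with the glutathione transferases, Ptgr1, a reductase of reactive alkenals, differed most. It stood at 32.7 and 34.9 CPM in stimulated KO cells, against 89.0 and 99.5 CPM in stimulated WT cells. Under PBS its level was 31.3 and 34.2 CPM in KO cells and 29.9 and 30.7 CPM in WT cells. The stimulated KO libraries overlapped those of KO with PBS, and the stimulated WT libraries lay above all others. The log2 change on stimulation was 0.04 ± 0.09 in KO cells (edgeR adjusted p = 0.747) and 1.64 ± 0.09 in WT cells (adjusted p = 1.94e-05), with a difference of -1.59 ± 0.13 (adjusted p = 0.00877). Gstm1, a glutathione transferase, stood at 108.4 and 96.2 CPM in stimulated KO cells and 229.6 and 194.8 CPM in stimulated WT cells, and with PBS at 164.7 and 179.9 CPM in KO and 220.3 and 167.6 CPM in WT cells. It was lower in stimulated KO cells by a log2 change of -1.05 ± 0.15 (adjusted p = 0.0136), a call lost when stimulated KO library 1 or 2 or stimulated WT library 1 was left out (adjusted p up to 0.091), and the difference of the responses did not pass (-0.88 ± 0.21, adjusted p = 0.179). Counts of Gstm1 and Gstp1 are uncertain where reads were shared with near-identical family members. Mgst1, the microsomal transferase, fell by 0.94 ± 0.08 in KO and 0.73 ± 0.08 in WT cells, and Gsto1 and Gstp1 passed in neither genotype.

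NADPH for glutathione and thioredoxin reductases comes from the pentose phosphate pathway and from malic enzyme, and 4 of the 5 genes of this group were lower in stimulated KO than in stimulated WT cells. Pgd, phosphogluconate dehydrogenase, stood at 611 and 613 CPM in stimulated KO cells, against 805 and 875 CPM in stimulated WT cells. With PBS alone it had 696 and 711 CPM in KO cells and 597 and 607 CPM in WT cells. The order of the genotypes was therefore opposite with PBS and after stimulation, with no overlap in either, although the PBS difference did not pass. Pgd fell by 0.20 ± 0.06 in KO cells and rose by 0.48 ± 0.06 in WT cells (edgeR adjusted p = 0.037 and 0.000879), and the responses differed by -0.68 ± 0.09 (adjusted p = 0.0322). G6pdx, glucose phosphate dehydrogenase at the entry of the pathway, stood at 474 and 475 CPM in stimulated KO and 629 and 663 CPM in stimulated WT cells, and with PBS at 360 and 388 CPM in KO and 366 and 386 CPM in WT cells. Taldo1, transaldolase, stood at 259 and 263 CPM in stimulated KO and 403 and 446 CPM in stimulated WT cells, and with PBS at 530 and 527 CPM in KO and 594 and 602 CPM in WT cells. Me1, malic enzyme, stood at 10.8 and 11.6 CPM in stimulated KO and 22.2 and 24.8 CPM in stimulated WT cells, and with PBS at 5.91 and 5.29 CPM in KO and 7.29 and 7.67 CPM in WT cells. G6pdx and Me1 rose in both genotypes and Taldo1 fell in both, and in each of them stimulated KO libraries lay below stimulated WT libraries. The log2 change between those groups was -0.46 ± 0.06 for Pgd (adjusted p = 0.0114), -0.45 ± 0.07 for G6pdx (adjusted p = 0.0162), -0.70 ± 0.07 for Taldo1 (adjusted p = 0.00382) and -1.07 ± 0.12 for Me1 (adjusted p = 0.00611). The calls of Pgd and G6pdx were lost when either library of stimulated KO cells was left out, that of G6pdx also without stimulated WT library 2, and that of Me1 without library 1 of stimulated KO cells (adjusted p up to 0.0952 for Pgd, 0.116 for G6pdx and 0.0578 for Me1). Tkt, transketolase, had a log2 change of -0.31 ± 0.07 that missed the threshold with edgeR (adjusted p = 0.0594) and passed it with DESeq2 (0.0119), limma-voom (0.0444) and the filter of 5 CPM (0.0493).

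**Figure D4:**
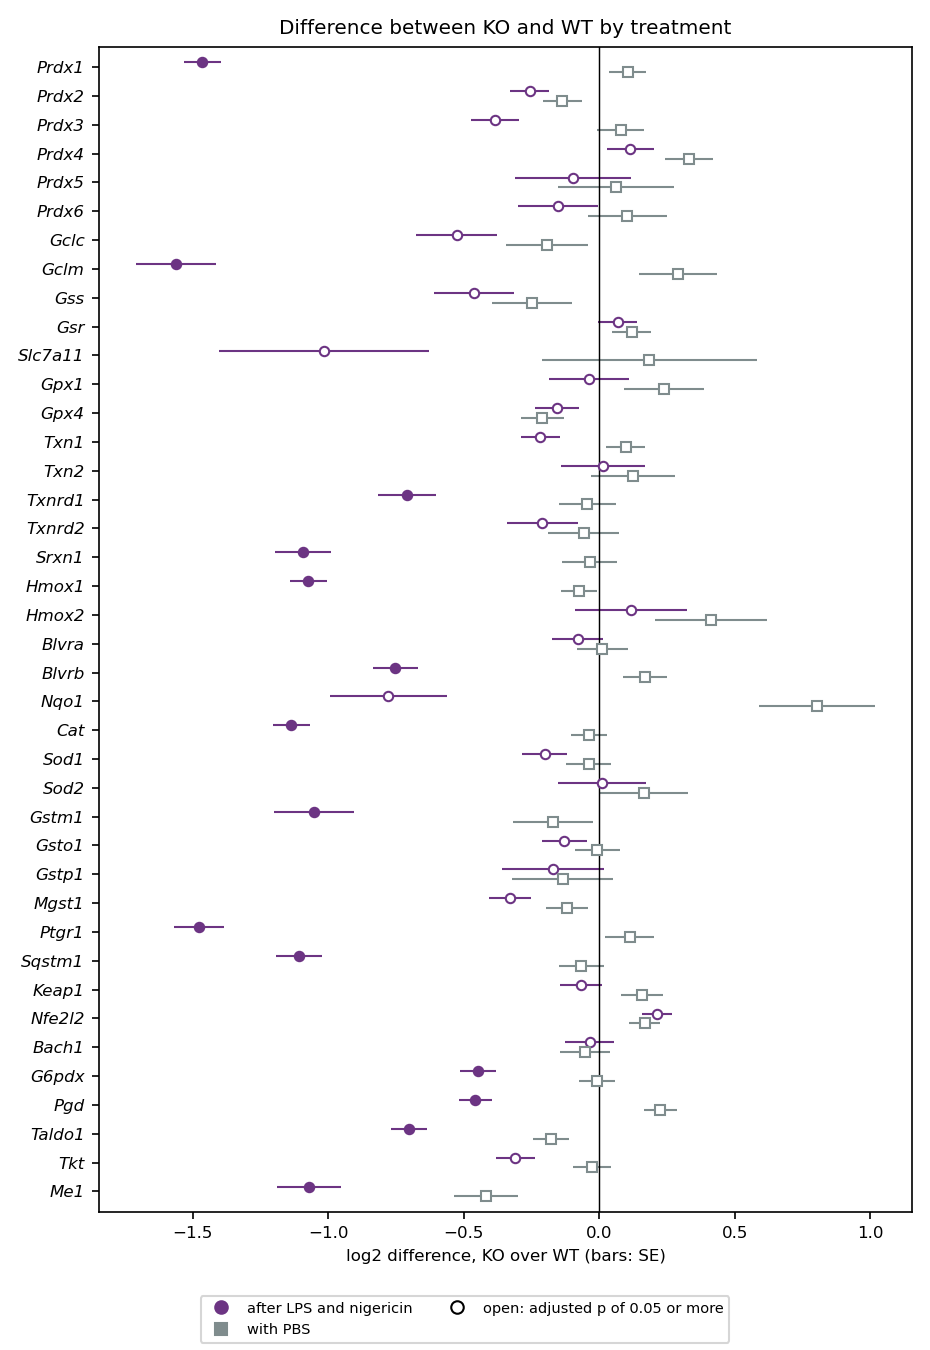
Points give the log2 difference between KO and WT cells for each gene, after LPS and nigericin (circles) and with PBS (squares), with standard errors and open symbols where the adjusted p was 0.05 or more. The 14 filled symbols are all circles left of 0, and no square is filled.

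Nfe2l2, Keap1 and Bach1 were not called between KO and WT cells with either treatment by edgeR. Nfe2l2 RNA stood at 400.1 and 401.1 CPM in stimulated KO cells, against 350.3 and 341.4 CPM in stimulated WT cells. Given PBS alone, it stood at 404.8 and 387.5 CPM in KO cells and 353.3 and 352.2 CPM in WT cells. KO libraries lay above WT libraries with either treatment, and stimulation had a log2 change of 0.02 ± 0.06 in KO and -0.03 ± 0.06 in WT cells. The log2 change of 0.21 ± 0.06 between stimulated KO and stimulated WT cells missed the threshold with edgeR (adjusted p = 0.0885) and passed it with DESeq2 (adjusted p = 0.0271). Keap1 stood at 78.0 and 76.6 CPM in stimulated KO and 80.6 and 81.3 CPM in stimulated WT cells, and with PBS at 48.6 and 52.4 CPM in KO and 43.3 and 47.3 CPM in WT cells. It rose by 0.61 ± 0.08 in KO and 0.84 ± 0.08 in WT cells. Bach1 stood at 43.9 and 45.4 CPM in stimulated KO and 49.2 and 42.3 CPM in stimulated WT cells, and with PBS at 132.6 and 144.3 CPM in KO and 142.7 and 144.6 CPM in WT cells. It fell by 1.63 ± 0.09 in KO and 1.65 ± 0.09 in WT cells, and the genotypes overlapped after stimulation. The difference of the responses was 0.02 ± 0.13 (edgeR adjusted p = 1). Sqstm1, the gene of p62, differed from these 3. It stood at 854 and 821 CPM in stimulated KO cells, against 1776 and 1834 CPM in stimulated WT cells, and with PBS at 759 and 662 CPM in KO and 778 and 711 CPM in WT cells. Its log2 change on stimulation was 0.24 ± 0.08 in KO cells (adjusted p = 0.0609) and 1.28 ± 0.08 in WT cells (adjusted p = 3.91e-05), with a difference of -1.04 ± 0.12 (adjusted p = 0.023). Antisense genes also overlap 17.3% of the exon bases of Sqstm1 (Mrnip), 13.6% of G6pdx (Ikbkg), 19.1% of Prdx5 (Trmt112), 15.4% of Gss, 11.5% of Prdx2, 10.9% of Keap1 and 4.7% of Gclm, with the same limit as for Hmox2. RNA levels of Nfe2l2 and Keap1 do not measure the amount or activity of their proteins.

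The difference of the 2 responses, KO minus WT, was negative for 37 of the 40 genes and passed the test for 9, all negative (22.5%). Over all genes, 0.395% were called with a negative and 0.103% with a positive difference. The median over the 40 was -0.29, against -0.00227 over all genes. The 9 were Prdx1, Gclm, Srxn1, Hmox1, Blvrb, Cat, Ptgr1, Sqstm1 and Pgd. Of these, 6 rose in WT cells, Cat fell in WT cells, and Gclm and Srxn1 passed no test in WT cells. At an unadjusted p under 0.05, 18 were negative and 0 positive. DESeq2 called 14 negative, where 1.68% of all genes were called negative. Prdx1 alone passed with each of the 8 libraries left out in turn (adjusted p up to 0.0266). The count was 1 without stimulated KO library 1, 3 without stimulated KO library 2, 2 without WT library 1 with PBS, 4 without stimulated WT library 2, and 5 without KO library 1 or WT library 2 with PBS, while 0.0809 to 0.367% of all genes had a negative call in the fits with a library left out. Of the 14 genes lower in stimulated KO cells, 8 kept their call with each library left out (Cat, Gclm, Hmox1, Prdx1, Ptgr1, Sqstm1, Srxn1 and Taldo1), and the count was 8 without stimulated KO library 1, where 0.41% of all genes were lower, and 9 without stimulated KO library 2, where 0.56% were.

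Levels were also set against the joined length of all annotated exons of a gene, which need not be the length of the transcript expressed. On that scale the highest in stimulated KO cells were 1010 CPM per kilobase (Prdx5), 774 (Hmox1), 568 (Txn1) and 466 (Prdx1). In stimulated WT cells the order was Hmox1 at 1630 CPM per kilobase, Prdx1 at 1290, Prdx5 at 1080 and Txn1 at 660. By group means Hmox1 and Prdx1 stood above Prdx5 in stimulated WT cells and below it in stimulated KO cells. Prdx5 had 1899 and 2725 CPM in the stimulated WT libraries, and 19.1% of its exon bases overlap an antisense gene. Its order against Prdx1 in stimulated WT cells is therefore uncertain.

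Other genes named in the literature as NRF2 targets were counted as a wider list of 24, of which 23 were tested. This list too was chosen with earlier results of these data known, so its counts beside shares of all genes are a description. In stimulated KO cells 11 were lower and 0 higher than in stimulated WT cells by edgeR, beside 2.01% and 2.91% of all genes, with a median log2 change of -0.59. With PBS 3 were higher and 1 lower in KO than in WT cells, beside 1.2% and 0.355% of all genes. After stimulation DESeq2 called 13 lower and 1 higher, limma-voom 10 and 0, and 15 were lower and 1 higher at an unadjusted p under 0.05. Cd36, a scavenger receptor for oxidised lipids, stood at 151.2 and 166.5 CPM in stimulated KO cells, against 378.4 and 377.1 CPM in stimulated WT cells (log2 change -1.25 ± 0.07, edgeR adjusted p = 0.00102). Cd36 was also lower in KO cells with PBS, at 590.5 and 557.6 CPM against 938.5 and 871.5 CPM in WT cells (-0.66 ± 0.07, adjusted p = 0.0127). Esd, S-formylglutathione hydrolase, stood at 383.8 and 398.3 CPM in stimulated KO cells and 914.3 and 792.3 CPM in stimulated WT cells (-1.13 ± 0.10, adjusted p = 0.00276). The aldo-keto reductase Akr1b8 stood at 12.5 CPM in both stimulated KO libraries and at 25.3 and 26.1 CPM in stimulated WT cells (-1.04 ± 0.08, adjusted p = 0.00206). These 3 and Akr1a1 kept their call with each library left out, and the count for the list was 4 without stimulated KO library 1. Over all genes, 0.395% were called with a negative difference of responses. Responses differed for 4 of the 23, all negative: Marco, Akr1b8 (-1.25 ± 0.12), Esd (-1.42 ± 0.14) and Cbr3 (-0.96 ± 0.13). Marco, a scavenger receptor, stood at 581.5 and 551.0 CPM in stimulated KO and 732.3 and 739.5 CPM in stimulated WT cells, and with PBS at 12.4 and 12.0 CPM in KO and 3.79 and 3.66 CPM in WT cells, so its difference of -2.09 ± 0.09 (adjusted p = 0.0014) came with a higher level in KO cells before stimulation. Cbr3, a carbonyl reductase, was likewise higher in KO cells with PBS, at 41.7 and 41.4 CPM against 25.4 and 25.3 CPM in WT cells (0.71 ± 0.09, adjusted p = 0.0167), and after stimulation had 18.1 and 19.8 CPM in KO and 21.6 and 23.5 CPM in WT cells (-0.25 ± 0.09, adjusted p = 0.179). The call of Marco held with each library left out. Those of Esd and Akr1b8 were lost when either library of stimulated KO cells or WT library 1 with PBS was left out, and that of Cbr3 in 7 of the 8 fits.

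**Figure D5:**
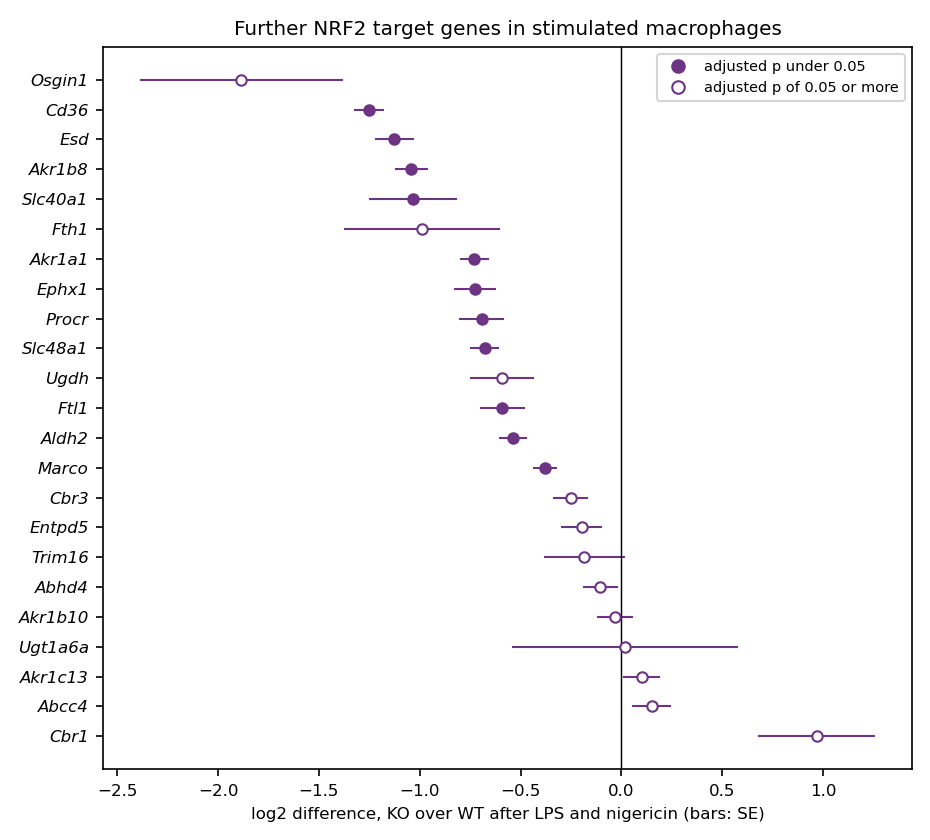
Points give the log2 difference between stimulated KO and stimulated WT cells for the 23 tested genes of the wider NRF2 target list, with standard errors, ordered by value and filled where the adjusted p was under 0.05. All 11 filled points lie left of 0.

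Over all genes, 2.01% were lower and 2.91% higher in stimulated KO than in stimulated WT cells by edgeR. Among 18 partners and regulators of NRF2, 1 was lower and 0 higher (4 and 0 at an unadjusted p under 0.05, 2 and 0 by DESeq2). This was Sesn2, a sestrin that acts in the removal of KEAP1, at 34.6 and 33.8 CPM in stimulated KO cells against 69.2 and 70.2 CPM in stimulated WT cells (log2 change -1.03 ± 0.11, edgeR adjusted p = 0.00611). It did not pass when either library of stimulated KO cells was left out (adjusted p up to 0.0557). On stimulation 7 of the 18 rose and 3 fell in KO cells (beside 20.2% and 19% of all genes), and 8 rose and 4 fell in WT cells (beside 20.6% and 20%). The numbers that fell are near the shares over all genes. Mafg, a small MAF partner, rose by 0.69 ± 0.07 in KO and 0.81 ± 0.07 in WT cells. Trp53inp1 fell, with log2 changes of -1.82 in KO and -1.63 in WT cells (edgeR adjusted p = 2.06e-05 and 3.38e-05). Sesn1 also fell, with log2 changes of -2.035 in KO and -2.109 in WT cells.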

How the data were processed

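RNA of 8 macrophage libraries was measured by RNA-seq. The authors deposited raw counts, whole numbers for each gene in each library. Trimmomatic, Bowtie2, edgeR and the mouse genome mm10 appear in the submitters' processing notes. How counting was done (tool, annotation, strand) is not stated in the labels. The series text gives 1 h or 3 h of nigericin and every sample label 3 h.

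From the counts, low genes were removed with filterByExpr (minimum count 10 and total 15), and the rest scaled by TMM and fitted with edgeR 4.0.16 (quasi-likelihood F test, R 4.3.3), 4 group coefficients and 4 residual degrees of freedom. Adjusted p-values are Benjamini-Hochberg over all 17470 tested genes, and CPM are TMM-scaled. The difference of responses is the interaction of genotype and treatment. All 40 genes are described in each contrast. From the wider lists, up to 4 genes called between genotypes or in the difference and up to 3 called on stimulation were named, by smallest adjusted p. Pgd and Nfe2l2 under alternative settings were named because they were the calls there. Promoter sequences are from RefSeq (GRCm38.p6), and symbols, coordinates and exon overlaps from GENCODE M21. Members and lists were chosen with earlier results of these data known. Alternatives were DESeq2 1.42.0, limma-voom 3.58.1, DESeq2 size factors, library size alone, 2 other filters, a replicate block and leaving out each library. The fit was tested on simulated data. Counts of same-group libraries differed well beyond sampling noise (chi-square over its degrees of freedom 38.8 to 81.4), so none is a copy of another. Intervals for single libraries are not given, and standard errors come from the fit. The levels of some single marker genes of other cell types are not reported here.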

Additional observations from a re-analysis of the deposited data

Results flagged for a closer look

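For 9 genes the response to LPS and nigericin differed between KO and WT cells by the interaction term of the edgeR fit (adjusted p from 0.00293 to 0.0417). The differences, KO minus WT on the log2 scale, were -1.57 for Prdx1, -1.85 for Gclm, -1.06 for Srxn1, -0.998 for Hmox1, -0.92 for Blvrb, -1.10 for Cat, -1.59 for Ptgr1, -1.04 for Sqstm1 and -0.68 for Pgd. In each of the 9, both stimulated KO libraries lay below both stimulated WT libraries. Prdx1, Blvrb, Ptgr1 and Sqstm1 passed the test of stimulation in WT cells alone, Gclm and Srxn1 in KO cells alone, Hmox1 rose and Cat fell in both, and Pgd fell in KO and rose in WT cells. Beside them, fibroblast and stromal markers summed to 470 to 533 CPM in stimulated KO and 189 to 202 CPM in stimulated WT cells, and their part in these differences was not tested.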

How the results depend on the processing

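The direction of all 40 genes in the 5 contrasts never turned for a called value under any alternative. Of the single-gene results, 1472 of the fits with a library left out kept their side of the threshold, 112 lost a call and 16 gained one. Under the other settings 1349 kept it, 12 lost a call and 34 gained one. The number of the 40 genes higher in stimulated KO than in stimulated WT cells was 0 in the reported fit and 1 (Nfe2l2) with DESeq2, 1 with the filter of 5 CPM in 2 libraries and 1 with library size alone, and between 0 and 1 with a library left out. The number higher in KO cells with PBS became 1 with library size alone. In the counts that follow, a negative difference of responses is one that passed the test. The number with a negative difference of responses became 14 with DESeq2, where 1.68% of all genes were called negative, and ranged from 1 to 9 with a library left out. With a library left out, the number lower in stimulated KO than in stimulated WT cells ranged from 8 to 14, and the number that fell in KO cells from 9 to 14 against 15, the 9 being without stimulated KO library 2. Under the other settings the number lower in stimulated KO cells ranged from 14 to 19, the 19 with DESeq2, where 4.07% of all genes were called lower. With fewer libraries the spread is estimated from fewer samples, and where a group kept 1 library, it is assumed to vary like the other groups. Library size alone moved the median log2 change of all genes to 0.127 between stimulated KO and stimulated WT cells, -0.112 for stimulation in KO cells, -0.197 for stimulation in WT cells and 0.103 for the difference.

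Over all genes, the differences between replicates correlated between groups at -0.015 to 0.101, highest between KO and WT cells with PBS. Correlations over all genes cannot decide whether libraries of the same number were paired, and the labels do not say. With PBS, Slc7a11, Gclc, Srxn1, Txnrd1 and Sqstm1 were higher in library 1 than in library 2 of both genotypes. Gclm and Gstm1 went in opposite directions in KO and WT cells. With the replicate number as a block, the rise of Nqo1 in WT cells did not pass (edgeR adjusted p = 0.0617). There 15 genes were called lower in stimulated KO than in stimulated WT cells, and 9 were called with a negative difference of responses. Under the block 13 rose and 15 fell in KO cells, and 22 rose and 8 fell in WT cells. In the wider list of NRF2 targets, the number lower in stimulated KO cells ranged from 4 to 11 with a library left out and the number with a negative difference from 1 to 4, and from 3 to 11 under the other settings, alternatives chosen after seeing the data. With 2 libraries a group, changes as small as those of Nfe2l2 or Tkt lie near what the test can call. Nqo1 had 120 to 261 counts per library.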

Other observations

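Sources of reactive oxygen and nitrogen species were read beside the defence genes. Of 10 tested genes, 6 rose and 2 fell on stimulation in KO cells, and 6 rose and 1 fell in WT cells, where over all genes 20.2% rose and 19% fell in KO and 20.6% rose and 20% fell in WT cells. Rac2, the small GTPase that activates the phagocyte NADPH oxidase, rose by 1.94 ± 0.09 in KO and 2.16 ± 0.09 in WT cells on the log2 scale, and Ncf1, a cytosolic subunit of that oxidase, by 1.48 ± 0.05 in KO and 1.29 ± 0.05 in WT cells. Between stimulated KO and stimulated WT cells 2 of the 10 were lower and 0 higher (4 and 0 at an unadjusted p under 0.05, 3 and 0 by DESeq2). Over all genes 2.01% were lower and 2.91% higher by edgeR. Nos2, the inducible nitric oxide synthase, stood at 70.0 and 65.5 CPM in stimulated KO and 148.5 and 138.4 CPM in stimulated WT cells (log2 change -1.08 ± 0.09, edgeR adjusted p = 0.00839), and had 0 counts with PBS. Nos2 no longer passed when either library of stimulated KO cells was left out (adjusted p up to 0.0694). Xdh, xanthine dehydrogenase, was lower in stimulated KO cells by -0.71 ± 0.07 (adjusted p = 0.00379), and also in KO cells with PBS (-0.55 ± 0.07, adjusted p = 0.0148).

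In the opposite direction, Sod3, the secreted superoxide dismutase, stood at 22.6 and 21.3 CPM in stimulated KO cells and 6.67 and 8.07 CPM in stimulated WT cells (1.58 ± 0.14, edgeR adjusted p = 0.00337, with each library left out up to 0.0346). It was 1 of 3 genes higher and 0 lower among 17 thioredoxin-dependent repair and redox genes, beside 2.91% and 2.01% of all genes. The other 2, Msrb3 (1.19 ± 0.21) and Txndc5 (0.36 ± 0.07), lost their call in every fit with a library left out. The fibroblast and stromal markers were higher in the same libraries, by the sums given above, and their part in the Sod3 level was not tested. On stimulation 7 of the 17 rose and 6 fell in KO cells, beside 20.2% and 19% of all genes. In WT cells 7 rose and 5 fell, beside 20.6% and 20%. Selenop, a selenium carrier, had log2 changes of -3.67 ± 0.08 in KO and -3.72 ± 0.08 in WT cells.

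Of 26 other glutathione genes, 9 rose and 4 fell on stimulation in KO cells, beside 20.2% and 19% of all genes. In WT cells 11 rose and 5 fell, beside 20.6% and 20%. The numbers that fell were near those shares. Glrx, glutaredoxin, rose by 3.36 ± 0.15 in KO and 3.39 ± 0.15 in WT cells, and Gpx3, the secreted glutathione peroxidase, fell, with log2 changes of -2.50 ± 0.13 in KO and -2.88 ± 0.13 in WT cells. Between stimulated KO and stimulated WT cells 2 were higher and 2 lower, beside 2.91% and 2.01% of all genes. Slc3a2, the heavy chain that carries the Slc7a11 transporter, stood at 452.1 and 449.5 CPM in stimulated KO and 617.0 and 663.6 CPM in stimulated WT cells (-0.51 ± 0.07, adjusted p = 0.0112), a call lost when either library of stimulated KO cells was left out. Gsta3 was lower (-1.35 ± 0.27, adjusted p = 0.0392) and Gstt3 higher (0.78 ± 0.15, adjusted p = 0.0338), and each kept its call in 1 of the 8 fits with a library left out. Ggt5 had 35 and 23 counts in the stimulated KO libraries and 0 in both stimulated WT libraries, at least 18.1-fold higher against a floor of 3 counts over the group, and its call was lost without stimulated KO library 1 (adjusted p = 0.0501) and with limma-voom. Of 15 other NADPH and pentose phosphate genes, none was called between stimulated KO and stimulated WT cells by edgeR (2 higher and 2 lower at an unadjusted p under 0.05, 1 lower by DESeq2 and 1 lower by limma-voom). On stimulation 7 rose and 2 fell in KO cells, beside 20.2% and 19% of all genes. In WT cells 7 rose and 3 fell, beside 20.6% and 20%. Here too the numbers that fell were near or below those shares. Idh1, the cytosolic isocitrate dehydrogenase, had log2 changes of -1.65 ± 0.07 in KO and -1.69 ± 0.07 in WT cells. The difference of responses passed for none of the genes in these 4 lists with edgeR or limma-voom. With DESeq2 it passed for 2 other glutathione genes, 1 in each direction, and for 1 repair and redox gene, higher in KO cells. At an unadjusted p under 0.05 the glutathione list had 2 positive and 4 negative differences, the repair list 2 and 1, the NADPH list 1 and 2 and the list of sources 1 and 1.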
